A study of Mus musculus with 12 samples.

Results

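The anti-PD-1 term is the difference between 6 libraries given an antibody against PD-1 and 6 libraries not given it, estimated with IFNa (mouse interferon alpha) as a second, additive factor. The 6 libraries with anti-PD-1 were 3 given IFNa plus anti-PD-1 (the combination) and 3 given anti-PD-1 alone. The 6 without it were 3 given IFNa alone and 3 untreated. All 12 libraries of the series were used, and 14389 of the 21878 genes counted had at least 10 counts in at least 3 libraries and were tested. RNA was total RNA, labelled as liver and as Hepa1-6, a mouse hepatoma cell line that secretes fetal liver proteins. The labels give no dose, time or host of the cells, and no sex or age of any animal. They also leave unsaid if each replicate was its own animal or culture, so p-values measure only the spread between these samples.

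PD-1, the product of Pdcd1, is an inhibitory receptor on activated T cells, and its ligands PD-L1 and PD-L2 come from Cd274 and Pdcd1lg2. An antibody that blocks PD-1 keeps these ligands from dampening T cell receptor signalling. Activated T cells and natural killer (NK) cells release interferon gamma, which acts on genes for antigen presentation, guanylate-binding GTPases and the chemokines Cxcl9 and Cxcl10, which attract T cells. Type I interferons such as IFNa act on an overlapping set of antiviral genes.

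The promoters of 3 interferon-response genes are printed because genes of these groups were higher with anti-PD-1 in the results that follow. Each is the 250 bases before the gene's start, 5′ to 3′, from RefSeq on GRCm38.p6. Trim30a, an interferon-induced tripartite-motif gene, lies on the minus strand (chr7:104465194-104465443). Gbp5, a guanylate-binding GTPase, lies on the plus strand (chr3:142496684-142496933), and Cxcl10 on the minus strand (chr5:92348890-92349139). Capitals mark the GAAA repeat (GAAA, any 2 bases, GAAA), the core letters read by interferon regulatory factors, and TTCNNNGAA, the palindrome read by STAT dimers, each on either strand. Each of the 3 holds 1 match of the first, Gbp5 also holds 2 of the second, and no matches overlap. Each was the called member of its gene list with the smallest p among those holding the GAAA repeat. That match was therefore fixed by the choice, and members with smaller p, such as Oasl2, Gbp4 and Ccl4, were passed over.
Trim30a: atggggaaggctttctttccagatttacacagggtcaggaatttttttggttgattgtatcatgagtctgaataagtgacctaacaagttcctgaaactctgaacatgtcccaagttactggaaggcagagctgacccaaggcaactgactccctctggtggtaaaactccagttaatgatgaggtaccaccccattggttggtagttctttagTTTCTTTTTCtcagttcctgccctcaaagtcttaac
Gbp5: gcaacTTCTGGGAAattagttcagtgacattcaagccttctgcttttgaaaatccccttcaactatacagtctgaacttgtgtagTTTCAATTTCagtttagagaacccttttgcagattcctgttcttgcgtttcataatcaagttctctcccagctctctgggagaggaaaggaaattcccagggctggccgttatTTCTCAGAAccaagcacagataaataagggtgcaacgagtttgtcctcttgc
Cxcl10: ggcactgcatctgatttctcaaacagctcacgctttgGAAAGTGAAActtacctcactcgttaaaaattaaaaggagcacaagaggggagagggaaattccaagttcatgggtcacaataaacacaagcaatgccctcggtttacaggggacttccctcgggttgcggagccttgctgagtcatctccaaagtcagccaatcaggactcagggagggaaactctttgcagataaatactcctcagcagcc
Among tested genes, 10977 of 14389 had a promoter in the RefSeq table, taken as 250 bases before to 50 after the first listed start. The GAAA repeat stood in 6.50% of 1739 promoters of genes called higher with anti-PD-1, in 2.30% of 1219 promoters of genes called lower and in 3.22% of all 10977. TTCNNNGAA stood in 9.14% of the first set, 6.15% of the second and 7.16% of all. CCAAT, the box read by NF-Y, stood in 34.4%, 37.7% and 38.5% of the same 3 sets. TTTGAA, found in cell cycle promoters, stood in 15.2%, 12.4% and 12.4%. TCACNCCAC, letters of a sterol element, stood in 1.38%, 1.23% and 1.11%. By list, 14 of 26 type I interferon promoters and 10 of 14 promoters of interferon gamma GTPases and IRF1 targets held the GAAA repeat. These are matches of letters, counted on both strands with no test.

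Library totals were 31.3 to 38.5 M (mega) counts, and 15678 to 16377 genes had at least 1 count. Levels are CPM (counts per M after TMM scaling), and each log2 fold change is followed by its standard error after the ± sign. The first principal component held 53.5% of the variance and separated the arms, at 10.8 to 92.1 with anti-PD-1 and -73.9 to -22.6 without (exact permutation test within IFNa strata, two-sided, p = 0.005, the smallest that 400 relabellings allow; 0.01 adjusted over 4 library measures). The libraries furthest out were anti-PD-1 replicate 3 (92.1 on this component) and IFNa replicate 1 (-71.0 on the second, which held 15.5%). Y-linked genes (Uty, Kdm5d, Eif2s3y and Ddx3y, 4 in all) had a summed level of 26.2, 39.1 and 94.3 CPM with anti-PD-1 (lowest, median and highest of 6) and 9.96, 16.8 and 27.3 CPM without (exact permutation p = 0.005, adjusted p = 0.01). Alb, the serum albumin of hepatocytes, did not pass the test (-0.06 ± 0.17, adjusted p = 0.81) and stood at 6864 to 15960 CPM with and 9500 to 11800 CPM without.

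Anti-PD-1 was associated with 2290 higher genes, 15.9% of those tested, and 1586 lower genes, 11.0%, at an adjusted p under 0.05, together 26.9%. Here and below, adjusted p is from edgeR's quasi-likelihood test with Benjamini-Hochberg adjustment over all 14389 genes. The median log2 fold change over all tested genes was -0.01. The genes that rose changed more: their median was 1.38, and 1633 of them (71.3%) were over 2-fold. The genes that fell had a median of -0.37, and 140 of them (8.83%) were over 2-fold. The 6 and 6 values did not overlap for 1151 genes that were higher (8.0%) and 741 that were lower (5.15%). Without anti-PD-1 replicate 3 and IFNa replicate 1 the counts were 2194 higher and 1957 lower. The number of lower genes was 1053 if combination replicate 3 was left out, 1024 if untreated replicate 1 was and 1022 if untreated replicate 2 was. With the mean log2 level of the 4 Y-linked genes as a further term, 5 genes were called higher and 4 lower. Of the 146 named genes called without that term, 67 then had a fold within 1.5 times of their value, 66 a smaller one of the same sign, 2 a larger one and 11 the opposite sign. Cyp2a4, for example, was at -5.03 with the term and -5.82 without it, and Lyz2 at 1.11 and 3.14. Of 39 gene lists described below, 7 of the 24 with a median above 0 then had one below 0 and 3 of the 15 below 0 had one above, and 2 list members in all were called. These were 1 gene of the B and plasma cell list and 1 of the mast cell list.

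**Figure D1:**
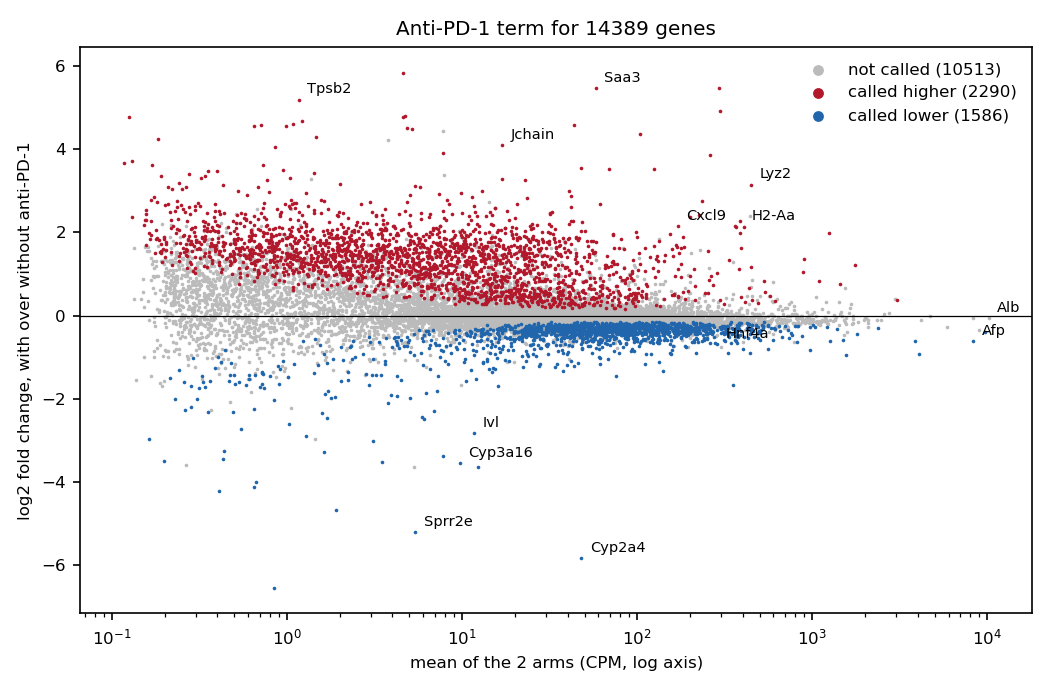
Log2 fold change of the anti-PD-1 term (vertical) against the mean CPM of the arms (horizontal, log axis); each point is 1 of 14389 tested genes, red for 2290 called higher and blue for 1586 called lower at an adjusted p under 0.05. Called rises reach further from 0 than called falls, except for a few falls such as Cyp2a4 and Sprr2e.

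Jchain, the joining chain of secreted antibodies, had the smallest p of all genes. It stood at 21.6, 25.0 and 56.6 CPM with anti-PD-1 and 1.11, 1.94 and 2.59 CPM without (lowest, median and highest of 6, as in every such pair below). The lowest library with anti-PD-1 was above the highest without, and the change was 4.09 ± 0.32 (adjusted p = 0.00036). All 12 tested B and plasma cell genes rose, with a median of 2.13, and none overlapped between arms, against 15.9% of all genes called higher and 8.0% not overlapping. The same shares of all genes, with 11.0% called lower, are the background for every list below. Mzb1, an endoplasmic reticulum chaperone of plasma cells, was at 0.69, 1.09 and 2.47 CPM with and 0, 0.0131 and 0.162 CPM without. These levels are near detection, since 3 counts equal 0.0786 to 0.102 CPM in these libraries. Cd79b, a chain of the B cell receptor, was at 0.902, 1.67 and 2.18 CPM with and 0.27, 0.336 and 0.687 CPM without (1.91 ± 0.34, adjusted p = 0.0038). Pou2af1, a B cell transcriptional coactivator, rose by 2.57 ± 0.37. In bulk RNA, a difference in the number of cells of a type cannot be told apart from a difference in RNA per cell, here and for every cell type list.

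Of 21 T cell genes, 18 rose and 0 fell, with a median of 1.96. Cd8a, a co-receptor chain on cytotoxic T cells, was at 12.4, 21.1 and 41.4 CPM with anti-PD-1 and 3.18, 5.70 and 8.99 CPM without. The arms did not overlap, and the change was 1.86 ± 0.32 (adjusted p = 0.0035). Cd4, the co-receptor of helper T cells, had 5.78, 20.1 and 62.8 CPM with and 1.35, 4.82 and 6.60 CPM without. Its arms overlapped, and it rose by 2.41 ± 0.52 (adjusted p = 0.0075). Cd3e and Cd3g, chains of the T cell receptor complex, rose by 2.01 ± 0.42 and 2.20 ± 0.40, and Cd5, a brake on receptor signalling, by 2.06 ± 0.38. The 3 members that did not pass, named after their values were seen, were Cd28 (0.34 ± 0.30), Icos (1.20 ± 0.45) and Tcf7 (0.05 ± 0.17), a transcription factor of naive and memory T cells.

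Of 8 regulatory T cell genes, 7 rose and none fell (median 1.89). Foxp3, the lineage factor of regulatory T cells, was at 0.736, 2.37 and 5.88 CPM with and 0.24, 0.454 and 0.687 CPM without. There was no overlap between the arms, and Foxp3 rose by 2.47 ± 0.47 (adjusted p = 0.0046). Ikzf2 and Ikzf4, the related factors Helios and Eos, rose by 2.04 ± 0.42 and 1.52 ± 0.28.

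The checkpoint list held 14 tested genes, of which 12 rose, with a median of 1.68. Pdcd1 itself, the target of the antibody, was at 5.24, 11.0 and 25.0 CPM with anti-PD-1 and 1.08, 2.34 and 5.08 CPM without. It rose by 2.14 ± 0.43 (adjusted p = 0.0053), with no overlap between the arms. Its ligand genes rose as well: Cd274 was at 50.04, 63.0 and 167 CPM with and 20.2, 29.0 and 36.6 CPM without (1.505 ± 0.298). With the Y-linked term Cd274 was at 0.37, the list median was 0.66 and 0 members were called. Pdcd1lg2 was at 7.48, 13.2 and 37.9 CPM with and 3.12, 4.63 and 5.86 CPM without (1.90 ± 0.36). Havcr2, which encodes TIM-3, rose by 1.73 ± 0.30, and Cd200r1, an inhibitory receptor of myeloid and T cells, by 1.90 ± 0.24. The 2 that did not pass, named after their values were seen, were Tox (-0.07 ± 0.27), a factor of exhausted T cells, and Lgals9 (-0.11 ± 0.09).

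Of 14 cytotoxic effector genes, 12 rose (median 1.89). Ifng, which encodes interferon gamma, had 1.81, 2.83 and 4.87 CPM with anti-PD-1 and 0.39, 0.534 and 1.63 CPM without. The arms did not overlap, and Ifng rose by 2.08 ± 0.38 (adjusted p = 0.0041). Gzmk, a granzyme of memory T cells, rose by 2.02 ± 0.50, and Fasl, which triggers death through Fas, by 1.94 ± 0.36. Gzmb, the granzyme that activates caspases in target cells, did not pass. It was at 5.67, 9.42 and 24.7 CPM with and 5.10, 7.92 and 9.80 CPM without (0.42 ± 0.31, adjusted p = 0.33). Gzma (0.39 ± 0.41), the other member that did not pass, is named after its values were seen.

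Of 7 tested NK receptor genes, 4 were higher (57.1%, against 15.9% of all genes) and 1 was lower (14.3%, near the 11.0% of all genes). Without some single libraries only 2 were called higher, namely without untreated replicate 2, combination replicate 2, anti-PD-1 replicate 2 or anti-PD-1 replicate 3. Klrk1 and Klrd1, which encode NKG2D and CD94 and are also used by CD8 T cells, rose by 1.35 ± 0.30 and 1.68 ± 0.41. Klra4, an activating Ly49 receptor, was at 0.756, 1.74 and 4.11 CPM with and 3.36, 6.87 and 16.9 CPM without. It fell by 1.99 ± 0.45 (adjusted p = 0.0090) on the log2 scale, with overlapping arms, and it shares sequence with other Ly49 genes, so its counts are uncertain.

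**Figure D2:**
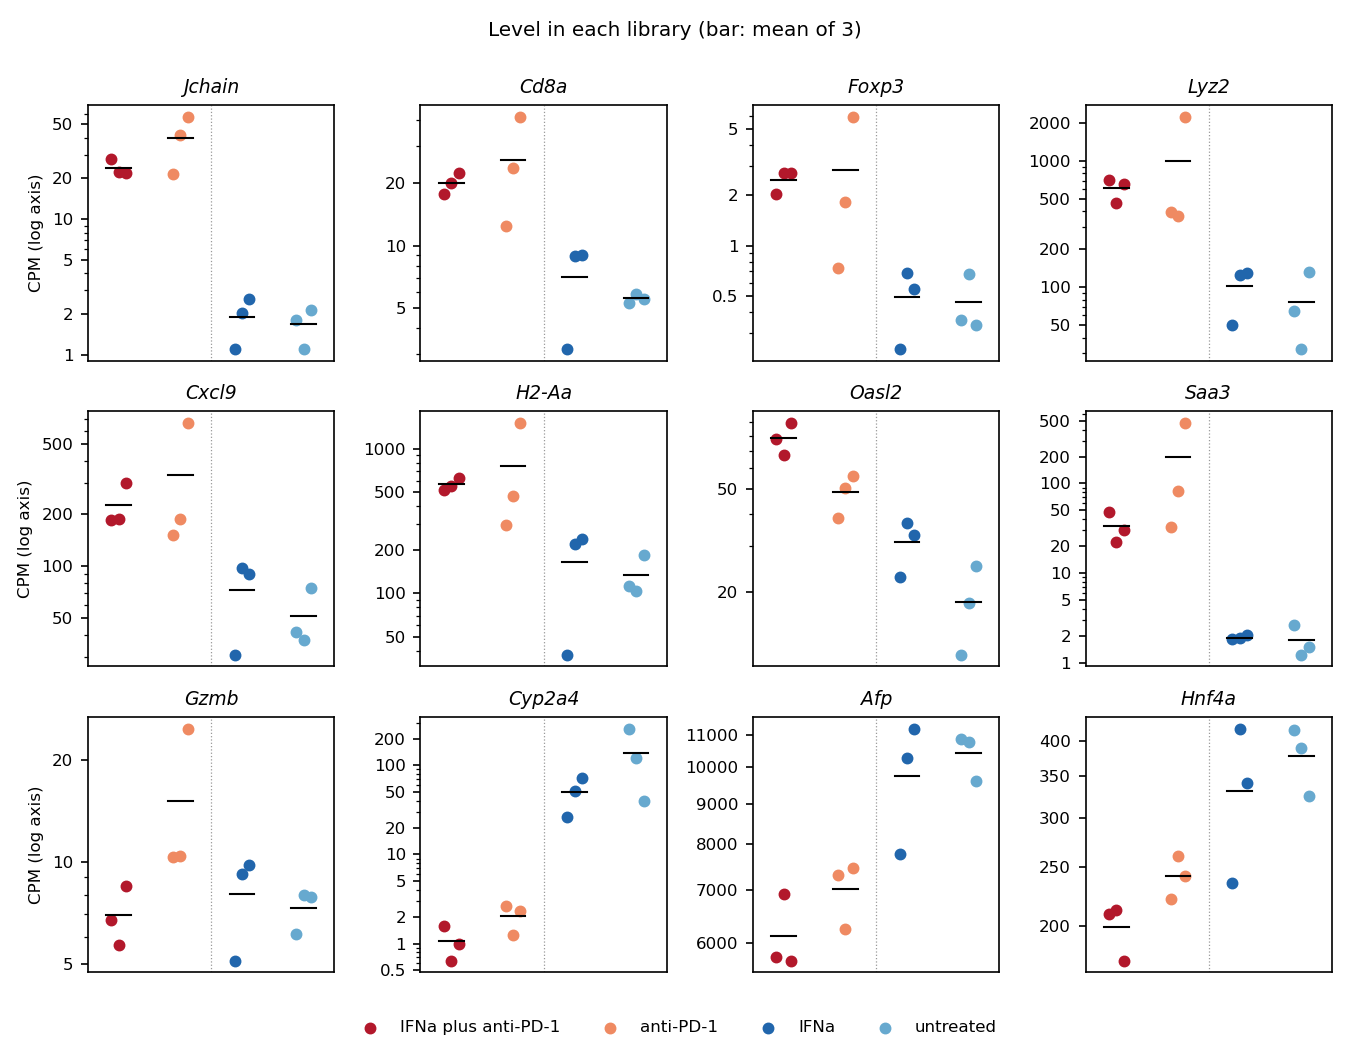
CPM (log axis) of 12 genes in each library; each point is a library, bars are means of 3, and the groups run from the combination and anti-PD-1 on the left to IFNa and untreated on the right of the dotted line. Jchain, Cd8a, Foxp3, Lyz2, Cxcl9, H2-Aa, Oasl2 and Saa3 did not overlap between arms on the higher side and Cyp2a4 and Afp on the lower side, while Gzmb and Hnf4a overlapped.

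Macrophage and monocyte genes rose in 20 of 21 cases (median 1.59), and 0 fell. With the Y-linked term 0 were called and the median was 0.54. Lyz2, the lysozyme of myeloid cells, was at 366, 559 and 2231 CPM with anti-PD-1 and 32.5, 94.8 and 132 CPM without (3.14 ± 0.55, adjusted p = 0.0038). The highest value was anti-PD-1 replicate 3, and the arms did not overlap. Csf1r, the receptor for the macrophage growth factor, had 107, 151 and 350 CPM with and 47.3, 65.0 and 83.1 CPM without (1.40 ± 0.28). C1qa, a chain of complement C1q made by macrophages, rose by 1.65 ± 0.33, Fcgr1, the high-affinity IgG receptor, by 1.46 ± 0.25, and Ccr2, the monocyte chemokine receptor, by 1.70 ± 0.31. Cd163, a scavenger receptor named after its values were seen, was the member that did not pass (-0.85 ± 0.83).

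Of 14 neutrophil genes, 12 rose (median 1.69). S100a9, a subunit of calprotectin, was at 38.4, 49.0 and 79.6 CPM with and 10.6, 13.9 and 30.2 CPM without. There was no overlap between the arms, and S100a9 rose by 1.79 ± 0.27 (adjusted p = 0.0030). Its partner S100a8 rose by 1.92 ± 0.33 and the chemokine receptor Cxcr2 by 1.44 ± 0.24. Of 13 dendritic cell genes, 12 rose (median 1.66), with Clec9a and Batf3, a receptor and a factor of cross-presenting cells, higher by 2.55 ± 0.51 and 1.55 ± 0.31.

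Mast cell genes had the largest median of the 40 lists, 4.05, and 6 of 7 rose. Mcpt4, a chymase, was at 0.595, 2.06 and 5.35 CPM with anti-PD-1 and 0, 0.0849 and 0.136 CPM without. Tpsb2, a tryptase, was at 0.425, 2.08 and 4.86 CPM with and 0, 0.0448 and 0.12 CPM without. The arms did not overlap for either gene, but the levels without anti-PD-1 were at about 3 counts a library or fewer, so the fitted folds of 4.68 ± 0.57 and 5.18 ± 0.59 depend on the prior count.

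Structural cells of the tissue were less uniform. With the Y-linked term the medians of the endothelial and of the fibroblast and matrix lists were -0.49 and -0.23, against 0.70 and 0.85 without it. Of 12 endothelial genes only 1 was called higher (8.33%, against 15.9% of all genes) and 0 lower. This was Eng, a TGF-beta co-receptor, at 0.96 ± 0.31 (adjusted p = 0.040), and it was not called without any one of 8 single libraries. Pecam1, the endothelial adhesion molecule CD31, was at 36.6, 74.3 and 119 CPM with and 48.1, 62.0 and 80.6 CPM without (0.35 ± 0.26, adjusted p = 0.33). Of 18 fibroblast and matrix genes, 6 rose (33.3%), between 2 and 10 when single libraries were left out. It was 2 without untreated replicate 1, without IFNa replicate 2 or without anti-PD-1 replicate 3. Thy1, which T cells also express, rose by 1.28 ± 0.26 and Pdgfrb, the pericyte growth factor receptor, by 1.09 ± 0.25. Col1a1, the main fibrillar collagen chain, did not pass (494, 600 and 1497 CPM with, 173, 483 and 648 CPM without; 0.80 ± 0.37, adjusted p = 0.13). The summed level of the 18 genes was 9768, 10570 and 13250 CPM with and 9256, 12550 and 13400 CPM without, so it did not follow the median of single genes (0.85).

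Antigen presentation genes rose in both the class II and the class I pathway. All 12 class II genes rose, with a median of 1.88. With the Y-linked term 0 were called and the median was 1.025. H2-Aa, a class II chain that presents to helper T cells, was at 298, 536 and 1501 CPM with anti-PD-1 and 37.5, 149 and 238 CPM without. The arms did not overlap, and H2-Aa rose by 2.14 ± 0.48 (adjusted p = 0.0090). Ciita, the class II transactivator, rose by 1.85 ± 0.36, and Ctss, the protease that trims the invariant chain, by 2.27 ± 0.43.

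Of 20 class I genes, 17 rose and 0 fell, with a smaller median of 0.88. H2-K1, a class I heavy chain, was at 359, 468 and 1469 CPM with and 80.2, 183 and 219 CPM without (1.98 ± 0.41, adjusted p = 0.0062). Its reads may be shared with related H2 genes. With the Y-linked term H2-K1 was at 0.33, the class I median was 0.38 and 0 members were called. Tap2, a subunit of the peptide transporter, was at 63.1, 102 and 132 CPM with and 30.1, 41.3 and 63.5 CPM without. It rose by 1.19 ± 0.21, and its arms overlapped by the lowest value with and the highest without. Nlrc5, the class I transactivator, rose by 0.97 ± 0.16. B2m, the light chain shared by class I molecules, rose by 0.82 ± 0.23 (adjusted p = 0.022), but was not called without untreated replicate 1 or 2, and was 0.55 without anti-PD-1 replicate 3. It was at 0.13 with the Y-linked term.

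Of 35 tested type I interferon response genes, 22 rose (62.9%, against 15.9% of all genes) and 0 fell, with a median of 0.71. Of the 35, 6 were higher with no overlap between arms, against 8.0% of all genes. Between 17 and 26 rose when single libraries were left out. With the Y-linked term the median was 0.22 and 0 were called. Oasl2, an antiviral oligoadenylate synthetase-like gene, was at 38.7, 61.8 and 89.6 CPM with anti-PD-1 and 11.4, 23.9 and 37.0 CPM without. The arms did not overlap although both hold IFNa-treated libraries, and Oasl2 rose by 1.37 ± 0.18 (adjusted p = 0.0025). Trim30a, whose promoter is printed above, rose by 1.21 ± 0.20. Ifit1, an inhibitor of viral RNA translation, and Isg15, a ubiquitin-like modifier, rose by less, 0.96 ± 0.20 and 0.68 ± 0.16, and their arms overlapped. Among the members that did not pass, named after their values were seen, were Oasl1 (-0.05 ± 0.11) and Eif2ak2 (-0.17 ± 0.18), the RNA-activated kinase PKR.

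Interferon gamma GTPases and IRF1 targets rose in 17 of 22 cases (median 0.95). Gbp5, with the promoter printed above, was at 31.1, 46.2 and 90.0 CPM with and 6.74, 12.9 and 19.2 CPM without (2.08 ± 0.33, adjusted p = 0.0033). Gbp4 and Gbp9, of the same guanylate-binding family, rose by 1.77 ± 0.26 and 1.17 ± 0.18. None of these 3 overlapped between arms, although near-identical family members can share reads. Lymphocyte-recruiting chemokines rose in 10 of 11 cases (median 1.41). Cxcl9 was at 150, 186 and 664 CPM with anti-PD-1 and 30.8, 58.2 and 97.2 CPM without (2.16 ± 0.45, adjusted p = 0.0062). Cxcl10 was at 43.6, 68.2 and 115 CPM with and 14.2, 23.7 and 45.7 CPM without (1.41 ± 0.28). The arms overlapped for Cxcl10 and not for Cxcl9. Ccl3 and Ccl4, chemokines of activated leukocytes, rose by 1.31 ± 0.22 and 1.52 ± 0.25.

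**Figure D3:**
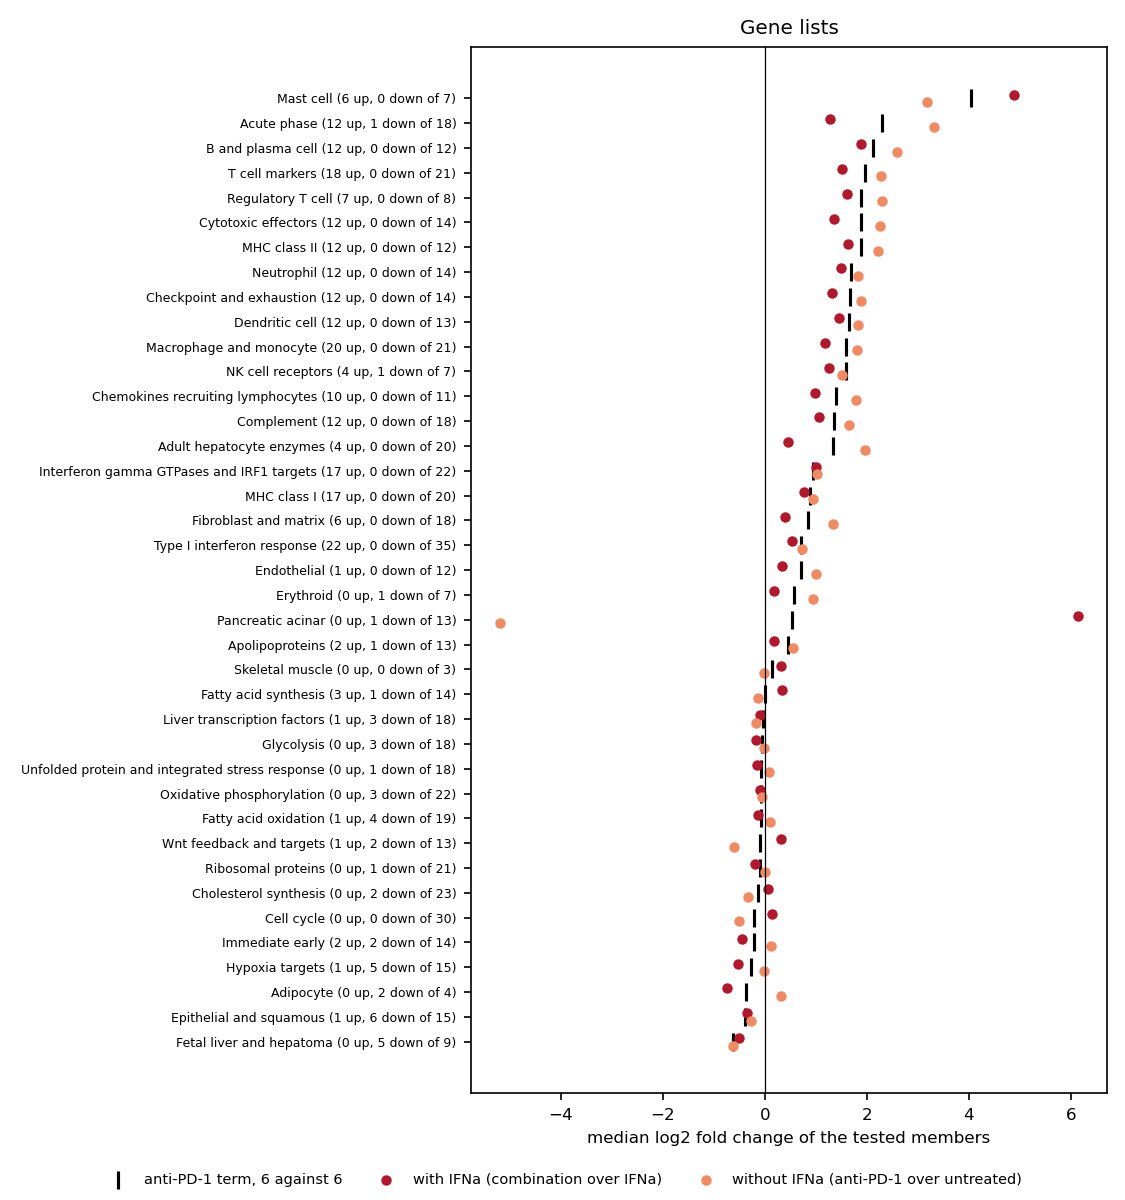
Median log2 fold change over the tested members of 39 lists for the anti-PD-1 term (black ticks), for the combination over IFNa (red) and for anti-PD-1 over untreated (orange), with the number called in each direction beside the name. Immune lists lie to the right of 0 with both dots on the same side, metabolic and cell cycle lists have ticks near 0, and the pancreatic acinar list has its dots far apart on opposite sides.

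The largest called rises at 5 CPM or more with no overlap between arms included liver-secreted inflammation proteins. Of 18 acute phase genes 12 rose and 1 fell, with a median of 2.30. Only 6 rose without untreated replicate 2 or without combination replicate 1, and 7 without untreated replicate 1. With the Y-linked term the direction turned, with a median of -0.25 and 0 members called. Saa3, a serum amyloid A also made by macrophages, was at 22.4, 40.0 and 473 CPM with anti-PD-1 and 1.22, 1.85 and 2.63 CPM without (5.45 ± 0.78, adjusted p = 0.0029). Saa1 was at 154, 435 and 1248 CPM with and 3.24, 29.6 and 60.4 CPM without (4.91 ± 0.79), and Saa2, nearly identical to it and therefore uncertain, rose by 5.46 ± 0.90. None of the 3 overlapped between arms, which was a condition of this ranking of rises, and their spread with anti-PD-1 was wide. Orm2, an acid glycoprotein of plasma, rose by 3.55 ± 0.47. Summed over the list, the level was 6844, 8086 and 26270 CPM with and 8926, 10400 and 13260 CPM without, and members such as Fgb did not rise. Fgb, a fibrinogen chain named after its values were seen, fell by 0.61 ± 0.19 on the log2 scale. No member was called lower when any single library other than untreated replicate 3 or anti-PD-1 replicate 3 was left out. Without anti-PD-1 replicate 3, 3 members were called lower.

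Of 18 complement genes 12 rose, with a median of 1.37, and 7 rose without untreated replicate 2, without combination replicate 1 or without anti-PD-1 replicate 3 (median 0.88 in the last case). With the Y-linked term the median was -0.11 and 0 were called. C8a, a chain of the membrane attack complex, was at 23.7, 39.4 and 177 CPM with anti-PD-1 and 4.54, 9.38 and 16.2 CPM without (2.87 ± 0.61, adjusted p = 0.0068). C5ar1, the C5a receptor of myeloid cells, rose by 1.75 ± 0.29, and Cfp, properdin, by 1.54 ± 0.32. Other plasma and liver genes with large rises were Serpina1e, an alpha-1-antitrypsin gene (3.86 ± 0.72), Ces3a, a liver carboxylesterase (3.52 ± 0.83), and Car3, a carbonic anhydrase (4.57 ± 1.02). Mup3, a major urinary protein with near-identical copies, was at 37.4, 112 and 686 CPM with and 0.661, 4.24 and 32.6 CPM without (4.36 ± 1.26, adjusted p = 0.025). It was not called without any one of the untreated replicates.

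Adult hepatocyte enzymes gave 4 rises among 20 genes (20%, near the 15.9% of all genes called higher), with a median of 1.35. With the Y-linked term the median was -1.285 and 0 were called. Their summed level was 7920, 10470 and 21140 CPM with anti-PD-1 and 10390, 11310 and 12310 CPM without. The number ranged from 0 to 10 when single libraries were left out, and was 0 without untreated replicate 1 or 2, IFNa replicate 2 or 3, combination replicate 1 or anti-PD-1 replicate 3 (median 0.72 in the last case). At an unadjusted p under 0.05, 9 members were higher and 0 lower. Arg1, the arginase of the urea cycle and of some macrophages, was at 35.3, 94.1 and 338 CPM with and 9.50, 33.9 and 227 CPM without and did not pass (1.22 ± 0.91, adjusted p = 0.33). Nos2, which makes nitric oxide from the same amino acid in activated macrophages, was at 11.4, 18.6 and 157 CPM with and 1.63, 4.06 and 6.58 CPM without. It rose by 3.25 ± 0.79 (adjusted p = 0.013). Nos2 was named among the largest rises with no overlap between arms, so that lack of overlap was fixed by the choice. Its highest value, 157 CPM, was anti-PD-1 replicate 3, and with the Y-linked term its change was 0.38.

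Several rises with small p belonged to none of the lists. Mndal, an interferon-inducible DNA-binding protein of the AIM2-like family, was at 30.4, 42.9 and 52.2 CPM with anti-PD-1 and 14.3, 19.4 and 19.9 CPM without (1.23 ± 0.12, adjusted p = 0.00064). Ccnd2, cyclin D2 of lymphocytes and other cells, rose by 1.32 ± 0.15, and Tnfsf10, the death ligand TRAIL, by 1.94 ± 0.23. Pdgfc, a platelet-derived growth factor, had narrow arms of 25.5, 27.0 and 29.8 CPM with and 15.2, 16.2 and 18.4 CPM without (0.74 ± 0.07). Olfml3, a secreted olfactomedin-like protein, rose by 1.19 ± 0.12. None of these 5 overlapped between arms.

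Genes that fell included markers of the hepatoma cells. Of 9 tested fetal liver and hepatoma genes 5 fell and 0 rose (median -0.62), against 11.0% of all genes called lower. The number was 3 without any one of the combination replicates. Afp, the fetal serum protein, was at 5702, 6588 and 7473 CPM with anti-PD-1 and 7770, 10530 and 11180 CPM without. There was no overlap between the arms, and Afp fell by 0.62 ± 0.10 on the log2 scale (adjusted p = 0.0030). Gpc3, the oncofetal proteoglycan glypican 3, was at 206, 273 and 382 CPM with and 321, 484 and 679 CPM without (-0.81 ± 0.20). Akr1b8, an aldo-keto reductase, fell by 0.53 ± 0.07. Of 18 liver transcription factors 3 fell (16.7%) and 1 rose (5.56%), against 11.0% and 15.9% of all genes, with a median of -0.02. Without IFNa replicate 1 or anti-PD-1 replicate 3, 5 fell. Hnf4a, a master regulator of hepatocyte genes, was at 176, 217 and 260 CPM with and 235, 365 and 418 CPM without (-0.69 ± 0.12, adjusted p = 0.0040). Prox1, a homeobox factor, fell by 0.45 ± 0.11.

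Of 15 epithelial genes (median -0.38) 6 fell (40%) and 1 rose (6.67%), against 11.0% and 15.9% of all genes. Krt18, a keratin of simple epithelia, was at 1249, 1510 and 1820 CPM with anti-PD-1 and 1873, 2095 and 2214 CPM without (-0.44 ± 0.09, adjusted p = 0.0051). Krt23 fell by 1.10 ± 0.17 and the tight junction gene Cldn4 by 0.39 ± 0.08. None of these overlapped between arms. The riser, named after its values were seen, was Cdh1 (1.02 ± 0.34), E-cadherin, which was not called without any one of 8 single libraries. Among the largest called falls at 5 CPM or more with no overlap between arms were keratinocyte envelope genes. Ivl, involucrin, was at 1.13, 2.52 and 7.08 CPM with and 8.41, 18.1 and 44.8 CPM without (-2.82 ± 0.35). Sprr2h was at 1.13, 1.52 and 3.23 CPM with and 9.87, 15.2 and 68.9 CPM without (-3.64 ± 0.54), and Sprr2e changed by -5.20 ± 0.76, both from a cluster of near-identical genes. Pkp1, a desmosomal plakophilin, fell by 1.29 ± 0.12.

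Among genes at 5 CPM or more with no overlap between arms, the largest called fall was in Cyp2a4, a steroid-hydroxylating cytochrome P450 of female mouse liver. It was at 0.64, 1.41 and 2.63 CPM with anti-PD-1 and 26.3, 61.8 and 256 CPM without (-5.82 ± 0.51, adjusted p = 0.00064). Every library with anti-PD-1 was lower than every library without, which was a condition of this ranking. Reads shared with the near-identical Cyp2a5 make the level uncertain. Cyp3a16, another P450, was at 0.634, 1.36 and 2.52 CPM with and 7.66, 12.7 and 48.3 CPM without (-3.55 ± 0.38). Akr1c18, which inactivates progesterone, was at 0.292, 0.659 and 1.10 CPM with and 3.54, 5.05 and 9.70 CPM without (-3.01 ± 0.35). Smaller falls with narrow arms were Rfk, riboflavin kinase (-0.75 ± 0.08) and Gss, glutathione synthetase (-0.82 ± 0.09), of which Gss is named after its values were seen.

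Growth and metabolism lists had medians nearer 0, in part with opposite values by IFNa. The cell cycle median was 0.14 with IFNa and -0.50 without, the Wnt target median 0.31 and -0.61, and the cholesterol median 0.07 and -0.33. Of 30 cell cycle genes 0 were called by edgeR, with 0 higher and 3 lower at an unadjusted p under 0.05 and 1 lower by DESeq2 (median -0.20). Without IFNa replicate 1, the library with the lowest summed level of these genes, 19 were called lower. Mki67, the proliferation antigen Ki-67, was at 197, 272 and 302 CPM with anti-PD-1 and 118, 298 and 331 CPM without (-0.01 ± 0.22), and Ccnb1, mitotic cyclin B1, changed by -0.46 ± 0.21 (adjusted p = 0.12). In anti-PD-1 against untreated Ccnb1 was at -0.88 (adjusted p = 0.039 by edgeR), and in the combination against IFNa at -0.04 (adjusted p = 0.94), with an adjusted p of 0.80 for the difference. Of 15 hypoxia genes (median -0.27) 5 fell (33.3%) and 1 rose (6.67%), against 11.0% and 15.9% of all genes. Without any one of 10 single libraries 2 or 3 fell, with 2 without untreated replicate 1 or combination replicate 1. Among them was Epas1, which encodes HIF-2 alpha, at 167, 196 and 240 CPM with and 241, 307 and 330 CPM without (-0.54 ± 0.10, adjusted p = 0.0040). P4ha1, a collagen prolyl hydroxylase, was the riser (0.46 ± 0.11). Of 18 glycolysis genes 3 fell (16.7%, near the 11.0% of all genes called lower) and 0 rose. Without untreated replicate 3, 6 fell. Those that fell included Slc2a1, the glucose transporter GLUT1 (-0.45 ± 0.14), and Ldha, lactate dehydrogenase A (-0.30 ± 0.08). Hk2, hexokinase 2, did not pass (-0.01 ± 0.10).

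Of 23 cholesterol genes 2 fell (8.7%, under the 11.0% of all genes called lower) and 0 rose. Between 0 and 4 fell when single libraries were left out. Sqle, squalene epoxidase, did not pass (-0.24 ± 0.15). Slc2a1 lost the call without any one of 8 single libraries. Oxidative phosphorylation gave 3 falls in 22 genes, ribosomal proteins 1 in 21, stress response genes 1 in 18 and fatty acid oxidation 4 falls and 1 rise in 19, with medians between -0.10 and -0.07. These shares are near or under the 11.0% of all genes called lower, apart from fatty acid oxidation. Without untreated replicate 3, 6 ribosomal protein genes fell, and 0 without any of 10 other libraries. Oxidative phosphorylation gave 1 fall without untreated replicate 1 or 2, combination replicate 3 or anti-PD-1 replicate 1. Such small counts moved by over 1.5 times without 1 library for the next 4 lists too. Fatty acid synthesis gave 3 rises (21.4%) and 1 fall (7.14%) in 14, and Wnt targets 1 rise (7.69%) and 2 falls (15.4%) in 13. Immediate early genes gave 2 of each (14.3%) in 14, and apolipoproteins 2 rises (15.4%) and 1 fall (7.69%) in 13. Of all genes, 15.9% were called higher and 11.0% lower. Among genes of admixed tissues, 1 of 13 pancreatic acinar genes fell, 2 of 4 adipocyte genes fell, 1 of 7 erythroid genes fell and 0 of 3 muscle genes were called by edgeR (1 higher at an unadjusted p under 0.05, 0 by DESeq2).

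The anti-PD-1 effect can be read separately with and without IFNa, and these comparisons share no library. From 1 fit of 4 group means, the combination against IFNa gave 49 higher (0.341%) and 88 lower genes (0.612%), and anti-PD-1 against untreated gave 1399 higher (9.72%) and 730 lower genes (5.07%). The 85 genes called in both, 62.0% of the first set and 3.99% of the second, all had the same sign. Of the 137 called with IFNa, 134 had the same sign without it, and of the 2129 called without IFNa, 2031 had the same sign with it, against 74.4% of all 14389 genes. Across all genes the fold changes had a Pearson r of 0.585, a description over genes that are not independent. Counts differed when each pair of groups was filtered, scaled and fitted alone, and the cause was not tested: combination against IFNa gave 774 higher and 362 lower genes, while anti-PD-1 against untreated gave 0 in edgeR (3834 at an unadjusted p under 0.05, smallest adjusted p = 0.107) and 2267 in DESeq2.

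The test of the difference between these effects called 0 genes in edgeR, with 868 at an unadjusted p under 0.05, a smallest adjusted p of 0.157, 0 calls with limma voom and 61 with DESeq2. Jchain had 3.64 with IFNa and 4.55 without (adjusted p = 0.81 for the difference by edgeR's quasi-likelihood test), Cyp2a4 -5.54 and -6.07 (adjusted p = 0.91) and Oasl2 1.33 and 1.41 (adjusted p = 0.97). The serum amyloid genes had larger values without IFNa: Saa2 had 3.83 with it and 7.26 without (unadjusted p = 0.012, adjusted p = 0.80). Notum, a Wnt inhibitor, had opposite signs, 1.43 with IFNa and -1.41 without (unadjusted p = 0.00013, adjusted p = 0.37), so its additive value of 0.00 ± 0.52 averaged over them. Arg1 had -0.40 with IFNa and 2.86 without (unadjusted p = 0.034, adjusted p = 0.80).

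**Figure D4:**
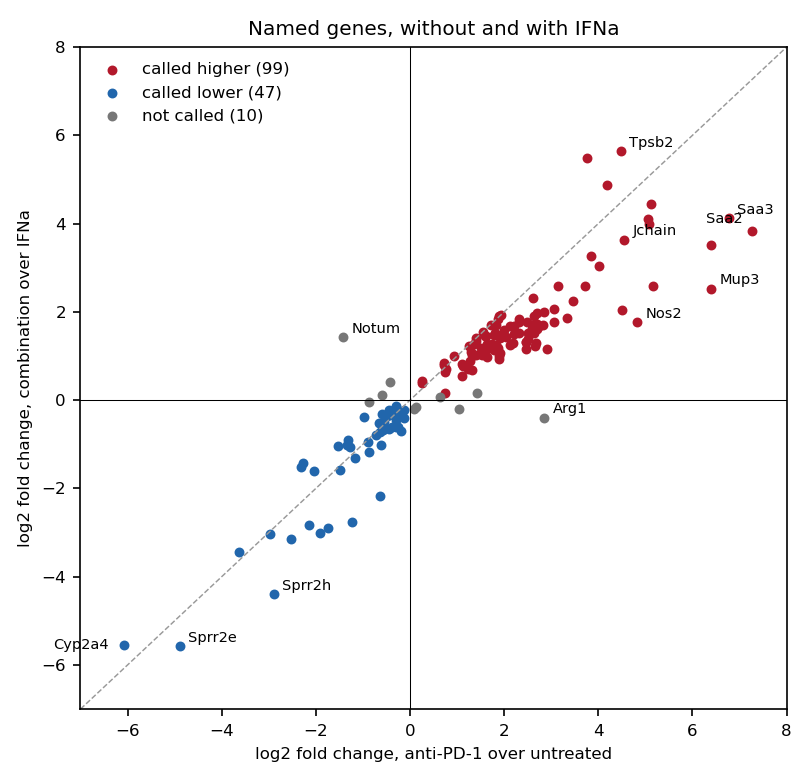
Log2 fold change of the combination over IFNa (vertical) against anti-PD-1 over untreated (horizontal) for 156 named genes, coloured by the call of the 12-library anti-PD-1 term (99 higher, 47 lower, 10 not called). Called genes lie in the quadrants of equal sign, most rises lie under the dashed line of equality, and Notum and Arg1 are among the uncalled genes in quadrants of opposite sign.

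Lower genes were unevenly spread over chromosomes, by gene positions in RefSeq, where 13787 of 14389 symbols (95.8%) matched. On chromosome 2, 268 of 1069 tested genes were lower (25.1%), against 4.43% to 14.5% on each of the other 19. Over 738 chromosome 2 genes with a mean of at least 10 CPM the median log2 fold change was -0.19, against -0.07 over all tested genes with such a mean. The median deviation of these genes from their own mean was -0.16 to -0.03 in the 6 libraries with anti-PD-1 and 0.03 to 0.17 in the 6 without (log2 scale). The arms did not overlap (exact permutation test within IFNa strata, two-sided, p = 0.005, the smallest possible; 0.02 adjusted over 20 chromosomes). With 343 genes of at least 50 CPM that are on none of the lists, a choice made after seeing the data, the highest value with anti-PD-1 was -0.07 and the lowest without was 0.06. In bins of 20 Mb the share of lower genes was 10.8% in the first and between 27.5% and 53.3% in the others. On chromosomes 3, 13 and 18 the arms did not overlap either. These and chromosome 1 had the same p of 0.005 by the exact permutation test. In all, 12 of 20 chromosomes passed at an adjusted p under 0.05 by the same exact permutation test. Besides chromosome 2 these were chromosomes 1, 3, 4, 5, 6, 7, 8, 11, 13 and 18, with differences of -0.129 to -0.046 on the log2 scale against -0.185 on chromosome 2, and chromosome 9, which differed the other way (0.08).

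**Figure D5:**
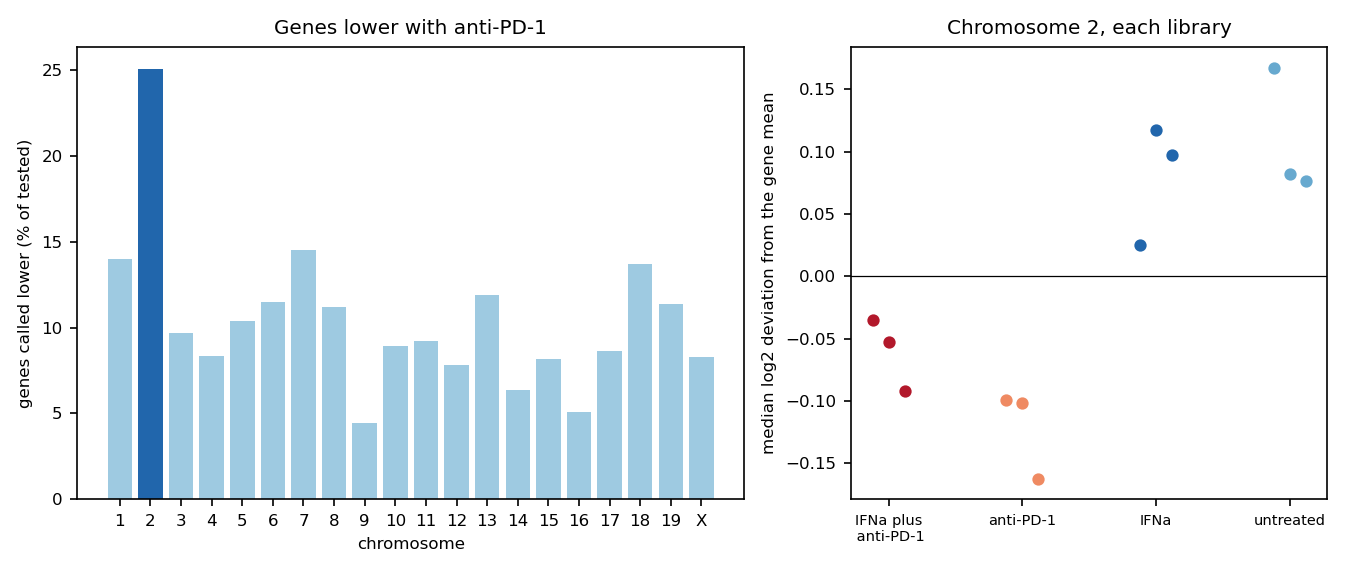
Left, share of tested genes called lower with anti-PD-1 on each chromosome (%), 25.1% on chromosome 2 and 4.43% to 14.5% on the others. Right, median log2 deviation of 738 chromosome 2 genes from their mean in each library (points), below 0 in all 6 libraries with anti-PD-1 and above 0 in all 6 without.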

How the data were processed

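Total RNA of 12 libraries labelled Hepa1-6 was sequenced, 3 each given IFNa plus anti-PD-1, anti-PD-1, IFNa or nothing, per the labels, and groups and columns were matched by the sample names. The mouse build mm10 and the tools Cufflinks, HTSeq and HISAT2 2.1.0 are named in the submitters' processing notes, which as used here give no annotation, strand setting or role of a tool. The authors deposited 1 whole-number count per gene and library, and a matching FPKM value (fragments scaled by gene length and by M fragments). Without a known strand setting, overlapping and antisense genes cannot be told apart, and reads of near-identical genes (Saa1 and Saa2, Mup, Sprr2, Cyp2a, Cyp3a, Gbp, H2, Ly49 genes) may be split.

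R 4.3.3 was used. Genes with at least 10 counts in at least 3 libraries were scaled by TMM and tested for the anti-PD-1 term, with IFNa as an additive term, in edgeR 4.0.16 (quasi-likelihood test, robust settings), with Benjamini-Hochberg adjustment across all 14389 genes and a call at 0.05. A fit of 4 group means gave the effects with and without IFNa and their difference. Totals of 31.3 to 38.5 M counts set a floor of 3 counts at 0.0786 to 0.102 CPM; floors cover counting error alone, and standard errors the spread of these libraries. Library measures were tested by exact permutation within IFNa strata. The rule for named genes took the 12 largest rises and falls that were called, at least 5 CPM and not overlapping, the 8 smallest p in each direction, up to 3 called members of each list and 40 preset genes, 160 in all. These genes, the 40 lists (635 different genes) and the promoter letters were chosen with earlier results of these data known. Lists are given as counts and medians with no set test.

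Alternatives were RLE factors, other count filters, DESeq2 1.42.0, limma 3.58.1 (voom with quality weights; limma-trend on log2 of the deposited FPKM plus 1 or 0.1), a 1.5-fold minimum, other terms and subsets of libraries. The procedure was tested on simulated data. No 2 libraries held identical counts. Some genes, 4 of the 160 among them, are not reported here, which leaves 156.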

Additional observations from a re-analysis of the deposited data

Results flagged for a closer look

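Each of 156 named genes was checked within each arm of 6 libraries for a highest or lowest value set apart from the other 5, on log2(CPM + 0.1). Of 312 checks 22 (7.05%) were set apart by Dixon's 95% limit, 12 with and 10 without anti-PD-1; chance does so in about 1 in 20 groups.

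Anti-PD-1 replicate 3 gave 7 of these. It was the highest library of its arm for Lyz2 (2230 CPM), Ctss (1650 CPM), Csf1r (350 CPM), H2-K1 (1470 CPM), Cfp (114 CPM) and B2m (2490 CPM), which are myeloid or antigen presentation genes. It was the lowest for the cholesterol synthesis gene Sqle (171 CPM). IFNa replicate 1 gave 6 in the arm without anti-PD-1. It was the lowest for Cd4 (1.35 CPM), the erythropoietin receptor Epor (2.76 CPM) and the mitotic cyclin Ccnb1 (40.0 CPM), and the highest for the lipid droplet gene Cidec (8.68 CPM), the envelope gene Sprr2h (68.9 CPM) and the riboflavin kinase Rfk (280 CPM).

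The other 9 were spread over 6 libraries. Anti-PD-1 replicate 1 was set apart for Sprr2e (0.708 CPM, highest), Sprr2h (3.23 CPM, highest) and Tbx21, the T-bet factor of cytotoxic cells (0.793 CPM, lowest). Anti-PD-1 replicate 2 was lowest for Tmc5 (1.27 CPM), and combination replicate 1 was highest for the ATP synthase gene Atp5a1 (992 CPM). Untreated replicate 1 was highest for Cyp3a16 (48.3 CPM) and lowest for Orm2 (1.17 CPM). Untreated replicate 2 was lowest for Olfml3 (20.6 CPM), and IFNa replicate 2 was lowest for Akr1b8 (186 CPM).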

How the results depend on the processing

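The anti-PD-1 term gave 2290 higher and 1586 lower genes. Replicate numbers were not taken to pair libraries, since the labels do not say what they mark. Deviations were correlated over 0.1 in 2, 5 and 1 of 6 same-numbered pairs (numbers 1, 2 and 3). The counts were 2249 and 1647 with RLE factors, 2308 and 1548 with the replicate block, 2194 and 1957 without anti-PD-1 replicate 3 and IFNa replicate 1, and 2702 and 2044 with DESeq2. Voom with quality weights gave 2514 lower, a 1.5-fold minimum 708 higher and 74 lower, log2(FPKM + 1) 1441 and 701 (749 lower with no filter) and log2(FPKM + 0.1) 1465 and 699. The Y-linked term gave 5 and 4, anti-PD-1 against untreated alone 0 and 0, and combination against IFNa alone 774 and 362; the cause was not tested. Folds changed less than calls: 137 of 145 named genes were within 1.5 times in anti-PD-1 against untreated alone. Leaving out single libraries gave 1607 to 2577 higher and 1022 to 1922 lower genes. The difference by IFNa gave 61 genes with DESeq2, 2 without anti-PD-1 replicate 3 and IFNa replicate 1, and 0 to 1 without single libraries. Of 146 called named genes 126 kept the call whichever library was left out. No called gene changed sign under these alternatives except with the Y-linked term, where 425 of 3876 did. Named genes that changed sign there were Acaa1b (-0.23), Ddx3y (-0.18), Apoa2 (-0.33), Acacb (-0.17), Thrsp (-0.54), Cyp8b1 (-0.85), Otc (-0.65), Apon (-0.74), Eng (-0.24), Ctnnb1 (0.029), Cyp2e1 (-0.71), Ccnb1 (0.0013), Col1a1 (-0.58), Sqle (0.29), Gzmb (-0.51), Pecam1 (-0.53), Arg1 (-1.885) and Mki67 (0.33). Some genes that were not called also changed sign elsewhere. With combination against IFNa alone Sqle was 0.084, Gzmb -0.23, Arg1 -0.43 and Mki67 0.39, and with anti-PD-1 against untreated alone Alb was 0.10, Hk2 0.16 and Notum -1.39. FPKM plus 1 gave Hk2 0.041 and Mki67 0.11, also with no filter, and FPKM plus 0.1 gave 0.042 and 0.12. With the replicate block Mki67 was 0.0072 and Notum -0.0015. Notum was -0.0096 with no filter, -0.19 with no IFNa term and -0.06 without anti-PD-1 replicate 3 and IFNa replicate 1. Without single libraries Alb ranged from -0.23 to 0.031, Hk2 from -0.093 to 0.036, Mki67 from -0.20 to 0.086 and Notum from -0.34 to 0.30. Genes under about 0.1 CPM are limited by depth.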

Other observations

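Outside the rule for named genes, and chosen after their values were seen, 13 called genes known for differing between the livers of male and female mice are given by their values. They are a selection, with no count over all such genes. Of those higher in female mouse liver, besides Cyp2a4, Cyp3a16 and Akr1c18, the genes that fell here were the sulfotransferases Sult2a1 (0, 0.085 and 0.312 CPM with anti-PD-1, lowest, median and highest of 6, and 0.63, 1.66 and 13.8 CPM without) and Sult2a2, and the transcription factor Cux2 (0.11, 0.282 and 0.85 CPM with, 0.686, 1.47 and 4.77 CPM without). Sult2a1 did not overlap between the arms, and Cux2 did. Sult2a and Mup genes have near-identical copies, so their counts are uncertain, and several of these levels are near the 3-count floor. Of those higher in male mouse liver, besides Mup3 and Serpina1e, the genes that rose here were the fatty acid elongase Elovl3 (5.83 ± 1.15, adjusted p = 0.0053), the transporter Slco1a1 (4.77 ± 1.30, adjusted p = 0.020), Mup20 (3.52 ± 1.15, adjusted p = 0.042), Cyp4a12a (4.48 ± 1.495, adjusted p = 0.045) and Hsd3b5 (3.48 ± 1.13, adjusted p = 0.040), by edgeR's quasi-likelihood test. Their arms overlapped in each of these 5. The Y-linked genes were also higher with anti-PD-1, and the part of that in these values was not tested.

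The ratio of the summed Y-linked level to Ptprc, the CD45 gene of white blood cells, was 0.281 to 0.613 with anti-PD-1 and 0.306 to 1.28 without, with IFNa replicate 1 at 1.28. The difference of -0.111 did not pass an exact permutation test within IFNa strata (two-sided, p = 0.755, 0.755 adjusted over 4 library measures). Ptprc itself was at 64.0, 110 and 224 CPM with anti-PD-1 and 21.2, 39.4 and 50.4 CPM without, and rose by 1.63 ± 0.30.

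Pancreatic acinar genes, which the liver does not make in quantity, varied between libraries of the same arm. Their summed level was 113 and 72.8 CPM in combination replicates 1 and 2 and 15.6 to 19.5 CPM in the other 4 libraries with anti-PD-1. It was 84.3 and 55.6 CPM in untreated replicates 2 and 3 and 24.6 to 35.0 CPM in the other 4 libraries without. Nearly all of these low sums was 1 gene, Cela1. It was at 14.9 to 18.7 CPM in the 4 low libraries with anti-PD-1 and 23.7 to 34.5 CPM in the 4 without.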
